A study of Homo sapiens with 6 samples.

Results

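Before a small nuclear RNA (snRNA) can take part in splicing it is exported from the nucleus, loaded with a ring of Sm proteins, given a new cap, re-imported and matured in the Cajal body. The SMN complex, built from the survival motor neuron protein and the Gemins, closes the Sm ring on the snRNA. The PRMT5 methylosome first methylates arginines in the tails of several Sm proteins, which raises their affinity for SMN. The 10 genes described here act along this route: GEMIN4, GEMIN7 and STRAP in the SMN complex, PRMT5, WDR77, CLNS1A and RIOK1 in the methylosome, TGS1 and SNUPN at the cap and at nuclear import, and COIL in the Cajal body. They were chosen by symbol for these roles, with earlier results of these data known, from 28862 genes in the deposited count table. All 10 were found there and in the deposited FPKM table, and all 10 passed the filter on low counts that left 15829 genes.

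Messenger RNA was sequenced from the human neuroblastoma line SH-SY5Y, whose cells resemble adrenergic neuroblasts. Libraries from cells labelled as overexpressing SMN1 (n = 3) are called the SMN1-labelled libraries. The others (n = 3) came from cells given a control plasmid. Neither the SMN1 construct, nor how long the cells carried it, nor whether replicates were separate cultures is stated in the labels. The p-values therefore cover the variation among these 6 libraries alone, and that variation may be technical.

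The SMN1-labelled libraries held 31740870 to 40275498 reads assigned to genes and the control libraries 30379242 to 31286361. SMN1 did not follow its label: it stood at 14.8, 16.6 and 16.6 CPM in the SMN1-labelled libraries and 20.04, 20.4 and 19.6 CPM in the control libraries (log2 fold change -0.32, edgeR quasi-likelihood adjusted p = 9.40e-05). SMN2 was also lower in the SMN1-labelled libraries (log2 fold change -0.30, edgeR adjusted p = 0.0031). So were the summed reads of SMN1 and SMN2 (log2 fold change -0.32, edgeR adjusted p = 2.23e-05). Every direction below is therefore between libraries as labelled. Levels in CPM are counts per 1e6 reads of a TMM-scaled library size, given as mean ± SD over n = 3 libraries, and a fold change is the SMN1-labelled group over the control group. Of 9 adrenergic neuroblast markers 8 were tested, of which 3 were higher and 5 lower (median log2 fold change -0.11). The summed FPKM of the 9 was 6220 to 6500 in the SMN1-labelled and 5360 to 5620 in the control libraries. Most of that sum came from CHGA, which was among the higher genes and averaged 4960 and 4210 FPKM in these groups. The remaining one, TH, had 0 to 1 reads in the SMN1-labelled and 3 to 9 in the control libraries. Of 8 markers of mesenchymal, substrate-adherent neuroblastoma cells 5 were lower, none was higher and none was at 0, with a summed FPKM of 23.1 to 24.2 in the SMN1-labelled and 41.2 to 43.4 in the control libraries. The part of this marker difference in the results below was not tested. In bulk RNA, fewer cells of a type and less RNA per cell cannot be told apart.

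Of the 10 genes, 3 were higher in the SMN1-labelled libraries (COIL, TGS1 and STRAP), 4 were lower (GEMIN7, GEMIN4, SNUPN and WDR77) and 3 did not pass the test (RIOK1, CLNS1A and PRMT5). Calls were made at an edgeR adjusted p of at most 0.05 over all genes tested, of which 56.2% were called, 28% higher and 28.2% lower. The 7 called of 10 therefore lie near the share among all genes. The groups did not overlap for 7 of the 10, against 60.7% of all genes tested, with 4 of the 10 entirely above (30.4% of all genes) and 3 entirely below (30.2%). All 10 changed by less than 1.5-fold, GEMIN7 most with 1.41-fold, and the median log2 fold change was -0.02, against 0.00 over all genes tested.

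**Figure D1:**
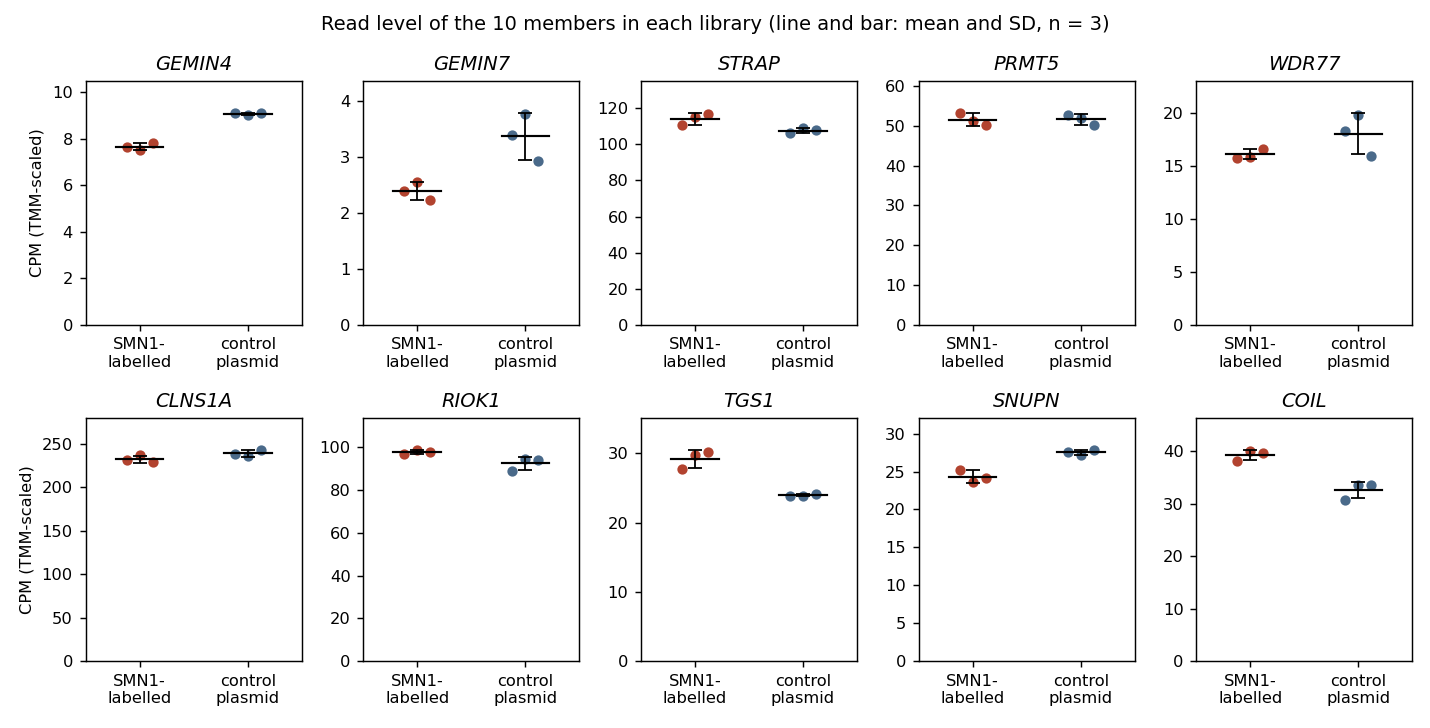
TMM-scaled CPM (y axis, from 0 in each panel) of the 10 genes in each library, SMN1-labelled left and control plasmid right, each point 1 library, with the mean and SD of n = 3. COIL and TGS1 stand clear of the control libraries from above, GEMIN4 and SNUPN from below, and the points of PRMT5 and CLNS1A intermingle.

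Levels between genes are compared in FPKM, the authors' values per kilobase and depth, in which the 10 genes spanned 1.14 to 51.55. CLNS1A and STRAP were highest and GEMIN4 and GEMIN7 lowest in both groups. STRAP averaged 50.1 FPKM in the SMN1-labelled libraries, within the spread of CLNS1A at 49.3 FPKM. In the control libraries STRAP averaged 44.4 FPKM, below every value of CLNS1A, which averaged 47.7 FPKM. RIOK1, PRMT5, COIL and SNUPN followed without overlap between neighbours, at 32.3, 15.3, 12.7 and 6.72 FPKM in the SMN1-labelled libraries and 28.7, 14.4, 9.88 and 7.16 FPKM in the control libraries. TGS1 and WDR77 changed places: TGS1 averaged 6.23 FPKM beside an overlapping 5.81 FPKM of WDR77 in the SMN1-labelled libraries, whereas in the control libraries TGS1 averaged 4.80 FPKM, below every WDR77 value, with a WDR77 mean of 6.14 FPKM. GEMIN4 and GEMIN7 overlapped in both groups, at 1.30 and 1.22 FPKM in the SMN1-labelled libraries and 1.44 and 1.61 FPKM in the control libraries. This order rests on the gene lengths that the authors used, which no source used here states and which reads and FPKM together put at 2.02 kb for GEMIN7 up to 6.11 kb for GEMIN4.

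**Figure D2:**
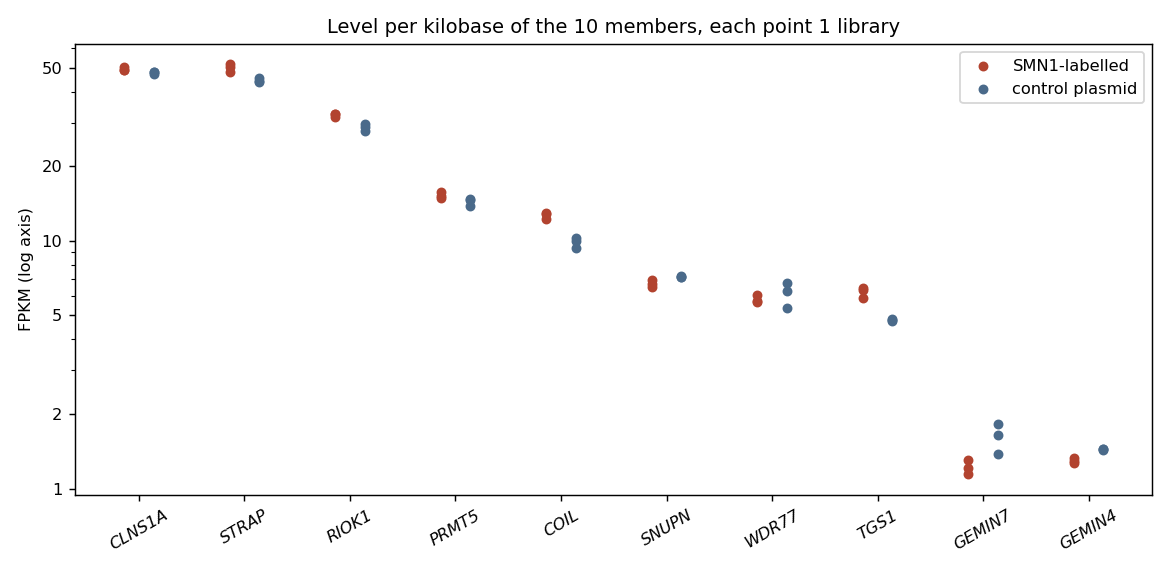
FPKM (log axis) of the 10 genes, ordered by level, each point 1 library, SMN1-labelled left and control plasmid right of each position. The genes fall from about 50 FPKM for CLNS1A and STRAP to between 1.14 and 1.82 FPKM for GEMIN7, and TGS1 moves past WDR77 in the SMN1-labelled libraries.

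In the SMN complex, both Gemins were lower and STRAP was slightly higher. GEMIN7 encodes a small protein that pairs with Gemin6 and binds SMN directly. It had 2.39, 2.55 and 2.22 CPM in the SMN1-labelled libraries and 3.40, 3.77 and 2.93 CPM in the control libraries. The SMN1-labelled values were all under the control values, though GEMIN7 rested on few reads, 80, 106 and 73 in the SMN1-labelled and 102, 115 and 85 in the control libraries. It fell 1.41-fold (log2 fold change -0.49, SE 0.14, edgeR adjusted p = 0.0041). The call did not hold once trends with length and GC content were removed, which left a log2 fold change of -0.21 (edgeR adjusted p = 0.211), or on unfiltered log2(FPKM + 1) values (limma adjusted p = 0.0548). The alternatives gave adjusted p from 0.00208 to 0.211.

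GEMIN4 encodes the Gemin that binds the helicase Gemin3 in the complex. Its levels were 7.64, 7.52 and 7.82 CPM in the SMN1-labelled libraries and 9.09, 9.01 and 9.10 CPM in the control libraries. The groups were tight and did not overlap. The fall was 1.18-fold (log2 fold change -0.24, SE 0.08, edgeR adjusted p = 0.0115). It was not called with DESeq2 (adjusted p = 0.0878), on FPKM values (limma adjusted p from 0.0747 to 0.117) or with length and GC corrected (edgeR adjusted p = 0.0729), and its adjusted p ranged from 0.00764 to 0.117.

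STRAP, also called UNRIP, encodes a WD-repeat protein that joins the complex through Gemin7 and also inhibits TGF-beta receptor signalling. It had 111, 115 and 117 CPM in the SMN1-labelled libraries and 106, 109 and 108 CPM in the control libraries. The lowest SMN1-labelled library stood just above the highest control library. The rise was 1.06-fold (log2 fold change 0.09, SE 0.04, edgeR adjusted p = 0.0458). This call was lost without control library 1, 2 or 3 (edgeR adjusted p = 0.15, 0.0604 and 0.0762) and without SMN1-labelled library 2 or 3 (0.118 and 0.147). Other settings that ended it were DESeq2 (adjusted p = 0.0511), a replicate block (edgeR adjusted p = 0.0632), upper-quartile factors, a stricter filter and the removal of ribosomal protein and mitochondrial genes. It held with length and GC corrected (edgeR adjusted p = 0.0188), in a range of 0.00203 to 0.15.

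Within a library, GEMIN7 was set against its partner GEMIN6. The FPKM ratio was 0.0431, 0.0445 and 0.0392 in the SMN1-labelled libraries and 0.053, 0.0592 and 0.046 in the control libraries. GEMIN6 thus had by far the higher FPKM in all 6 libraries, and the ratio was lower in every SMN1-labelled library than in any control library. GEMIN7 overlaps other genes on its own strand, as described below, so its level in this ratio is uncertain. The log2 ratio differed by -0.31 (exact permutation test, two-sided, p = 0.1, adjusted over 3 ratios 0.15). With 3 libraries against 3 the smallest possible p is 0.1, so this test cannot pass.

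In the methylosome, the catalytic subunit PRMT5 and the adaptors CLNS1A and RIOK1 did not pass the test, while WDR77 was called lower. PRMT5, the methyltransferase that places symmetric dimethylarginine on Sm proteins, had 53.2, 51.3 and 50.1 CPM in the SMN1-labelled libraries and 52.8, 51.8 and 50.2 CPM in the control libraries. The groups overlapped over nearly their whole range. The 95% interval of the log2 fold change was -0.09 to 0.08 (edgeR adjusted p = 0.967). After the length and GC correction PRMT5 was called higher (log2 fold change 0.12, edgeR adjusted p = 0.011, the lowest over the alternatives, with 0.982 the highest).

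WDR77, also called MEP50, is the WD-repeat partner that PRMT5 needs to bind its substrates. It had 15.7, 15.8 and 16.6 CPM in the SMN1-labelled libraries and 18.3, 19.8 and 15.9 CPM in the control libraries. The third control library lay within the SMN1-labelled group and the other two lay above it. The fall was 1.12-fold (log2 fold change -0.17, SE 0.07, edgeR adjusted p = 0.0428). Without control library 2 its log2 fold change shrank to -0.09 (edgeR adjusted p = 0.304). Without control library 3 it was -0.25 (edgeR adjusted p = 0.0036). The call was also lost without control library 1 (edgeR adjusted p = 0.115), without SMN1-labelled library 1 or 2 (0.0927 and 0.114) and with a replicate block (0.0516). It was lost too with DESeq2 (0.164), limma-voom (0.0522), no filter (0.0837) and FPKM values (0.457 to 0.604), and with length and GC corrected (0.359), in a range of 0.0036 to 0.604.

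Since PRMT5 and WDR77 act as 1 complex, their ratio was taken in each library. PRMT5 exceeded WDR77 in FPKM by 2.77-, 2.65- and 2.47-fold in the SMN1-labelled libraries and by 2.37-, 2.14- and 2.58-fold in the control libraries. The groups overlapped, and the log2 ratio differed by 0.16 (exact permutation test, two-sided, p = 0.2, adjusted over 3 ratios 0.2).

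CLNS1A and RIOK1 encode adaptors that compete for the same site on PRMT5. The CLNS1A product, pICln, brings Sm proteins to the enzyme and chaperones their assembly, and the kinase RIOK1 brings other substrates and also acts in small ribosomal subunit maturation. CLNS1A had 232, 237 and 229 CPM in the SMN1-labelled libraries and 239, 236 and 244 CPM in the control libraries. The groups overlapped, with a 95% interval of the log2 fold change of -0.11 to 0.03 (edgeR adjusted p = 0.311). It was called lower after the length and GC correction (log2 fold change -0.23, edgeR adjusted p = 4.48e-06, against up to 0.731 over the alternatives). That correction takes the GENCODE model of CLNS1A, which spans 77514936 to 77637805 on chromosome 11 and whose 3′ end lies far beyond that of the RefSeq gene. The exonic length of this model, 4592 nt, is close to the 4.85 kb implied by the deposited reads and FPKM. Whether the model bears on the corrected call was not tested.

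RIOK1 had 96.6, 98.7 and 97.7 CPM in the SMN1-labelled libraries and 88.6, 94.4 and 93.6 CPM in the control libraries. Every SMN1-labelled library lay above every control library, but the difference did not pass (log2 fold change 0.08, 95% interval 0.01 to 0.16, edgeR adjusted p = 0.0601). It was called higher without the first SMN1-labelled library (edgeR adjusted p = 0.0497), without a filter (0.0401) and on FPKM values (limma adjusted p from 0.00198 to 0.00679), in a range of 0.00198 to 0.296. The FPKM ratio of CLNS1A to RIOK1 was 1.54, 1.54 and 1.51 in the SMN1-labelled libraries and 1.73, 1.60 and 1.67 in the control libraries. This mRNA ratio was lower in each SMN1-labelled library than in any control library, but neither gene passed its own test. The log2 ratio differed by -0.12 (exact permutation test, two-sided, p = 0.1, the smallest possible, adjusted over 3 ratios 0.15), which did not pass.

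**Figure D3:**
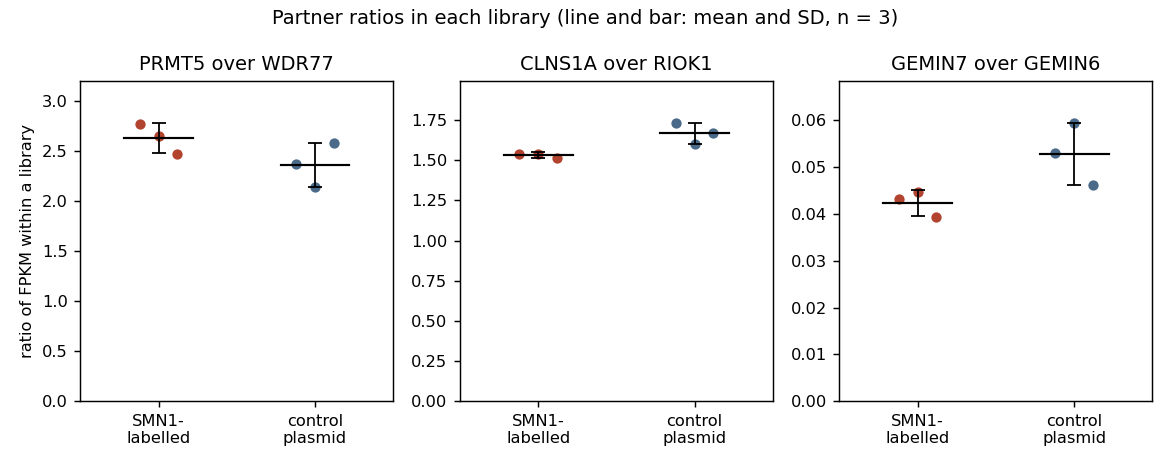
Ratio of FPKM between partner genes within each library (y axis, from 0), SMN1-labelled left and control plasmid right, each point 1 library, with the mean and SD of n = 3. The groups overlap for PRMT5 over WDR77, while CLNS1A over RIOK1 and GEMIN7 over GEMIN6 are lower in all SMN1-labelled libraries.

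At the cap, TGS1 was higher, and at import SNUPN was lower. TGS1 encodes the enzyme that converts the monomethyl cap of an assembled snRNA to the trimethylguanosine cap. It had 27.7, 29.8 and 30.2 CPM in the SMN1-labelled libraries and 23.9, 23.9 and 24.2 CPM in the control libraries. The groups were far apart relative to their spread. TGS1 rose 1.22-fold (log2 fold change 0.29, SE 0.05, edgeR adjusted p = 3.61e-05), with an adjusted p of 3.67e-07 to 0.00163 over the alternatives.

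SNUPN encodes snurportin, the adaptor that recognises the trimethylguanosine cap and hands the snRNP to importin beta. Its levels were 25.3, 23.6 and 24.1 CPM in the SMN1-labelled libraries and 27.6, 27.2 and 27.9 CPM in the control libraries. The groups did not overlap. SNUPN fell 1.13-fold (log2 fold change -0.18, SE 0.05, edgeR adjusted p = 0.00343). The fall was not called on FPKM values (limma adjusted p from 0.065 to 0.0842) or after the correction for length and GC, which left a log2 fold change of -0.05 (edgeR adjusted p = 0.383, the highest of a range from 0.0017).

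COIL encodes coilin, the scaffold protein of the Cajal body, which binds SMN through methylated arginines. It had 38.1, 40.1 and 39.6 CPM in the SMN1-labelled libraries and 30.8, 33.5 and 33.5 CPM in the control libraries. The lowest SMN1-labelled library stood well above the highest control library. COIL rose 1.21-fold (log2 fold change 0.27, SE 0.05, edgeR adjusted p = 3.19e-05), with an adjusted p of 1.13e-07 to 0.00167 over the alternatives. COIL and TGS1 were the only members of the 10 whose call held under all alternatives, including the length and GC correction, where their log2 fold changes were 0.20 and 0.21. The exonic length that this correction took for TGS1, 3869 nt, is below the 4.84 kb implied by the deposited reads and FPKM. The part of this difference in the corrected value was not tested.

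**Figure D4:**
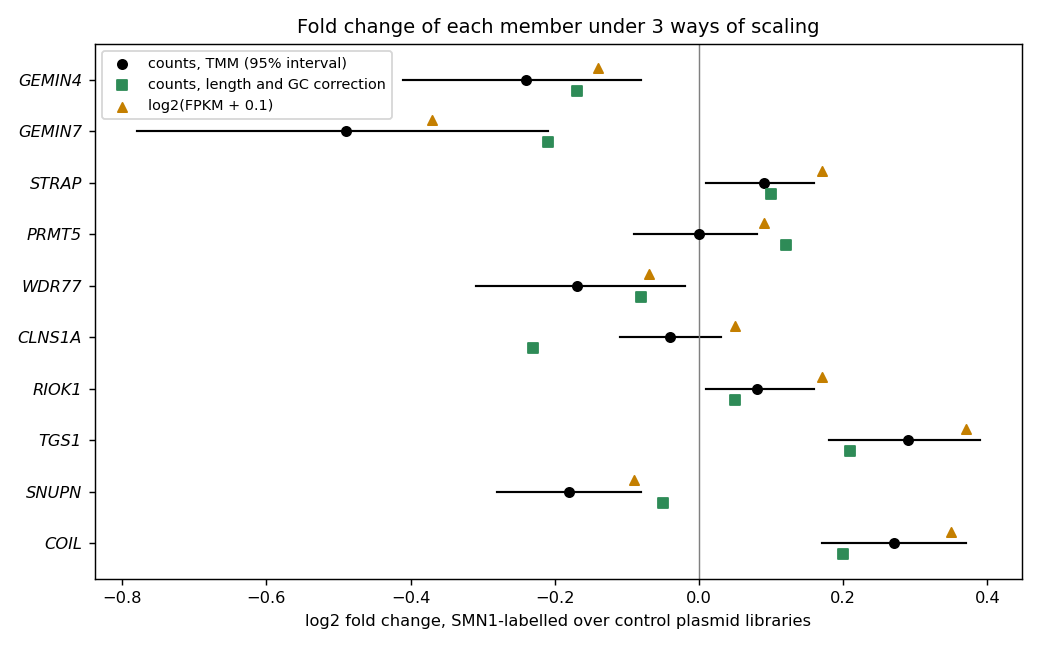
Log2 fold change (x axis, SMN1-labelled over control plasmid libraries) of the 10 genes from TMM-scaled counts with the 95% interval (black), after a length and GC correction (green squares) and on log2(FPKM + 0.1) (orange triangles). COIL, TGS1, STRAP and RIOK1 stay right of 0 under all 3, while the corrected values of CLNS1A, PRMT5 and SNUPN lie outside their intervals.

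Base composition differed between the called genes. The 3 higher genes had a GC content of 42.6% to 44.3% in their longest annotated transcript, and the 4 lower genes had 48.6% to 55.6%. The 3 genes that did not pass spanned 40.3% to 51.9%, and CLNS1A, the lowest of the 10 in GC at 40.3%, had a log2 fold change of -0.04. Exonic lengths overlapped, at 2211 to 3869 nt for the higher and 1915 to 5751 nt for the lower genes. Genes are not independent replicates, but over 15663 of them the log2 fold change went with GC content (Spearman's rho -0.43) and with exonic length (rho 0.34). After the correction of these trends within each library COIL, TGS1, STRAP and PRMT5 were called higher and CLNS1A lower, 5 of 10, against 48.8% of 15663 genes (26% higher and 22.8% lower). On the deposited FPKM values, which carry no TMM factor, 61.9% to 62.6% of all calls were higher, against 49.8% on the counts. Of the 10, 4 (COIL, TGS1, STRAP and RIOK1) were called higher in each of the 3 FPKM analyses. Over all genes 4956 and 4967 of 12491 were called higher with the filter and 4685 of 28501 without it. With the filter, 4 of 10 therefore lies near the share among all genes.

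Several of the 10 genes share their start region or overlap with another gene, which bears on the reads counted for them. In the GENCODE v29 annotation of GRCh38, a gene on the opposite strand starts within 1000 bases of 5 of them (STRAP, PRMT5, WDR77, RIOK1 and TGS1). WDR77, on the minus strand of chromosome 1 at 111439890 to 111449376, starts beside ATP5PB, which encodes a stator subunit of mitochondrial ATP synthase. ATP5PB had 53.1, 56.9 and 57.1 CPM in the SMN1-labelled libraries and 62.9, 58.9 and 61.8 CPM in the control libraries, and was lower as WDR77 was (edgeR log2 fold change -0.13, adjusted p = 0.00885). Without control library 1 and on FPKM values ATP5PB was not called, and its adjusted p ranged from 0.000102 to 0.49. The neighbour of TGS1, TMEM68, was higher as TGS1 was (edgeR log2 fold change 0.40, adjusted p = 0.0147, range 0.00731 to 0.343). It lost its call without control library 1 or 3, without SMN1-labelled library 2, with DESeq2, on unfiltered log2(FPKM + 1) values and after the length and GC correction. The neighbour of STRAP, the actin regulator EPS8, was higher as STRAP was (edgeR log2 fold change 0.60, adjusted p = 0.00114, range 0.000102 to 0.0475). CAGE1, a cancer/testis gene beside RIOK1, had 0 to 2 reads in the SMN1-labelled and 0 to 5 in the control libraries, so that pair shares a start region but not a level.

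The bases between the RefSeq starts of WDR77 and ATP5PB and between those of RIOK1 and CAGE1 are shown. They contrast a start region with transcripts on both sides with one that has them on one side. The bases before COIL are shown because its rise held throughout. Sequences are from RefSeq on GRCh38.p14, written 5′ to 3′ on the strand of the gene named first, and RefSeq starts can differ from those of GENCODE. The first is chr1:111449257-111449463 on the minus strand, 207 bases with CTCGCGAG in capitals. In GENCODE, WDR77 starts within this stretch, at 111449376. The second is chr6:7389743-7389807 on the plus strand, 65 bases with CCGGAAGT, here as its reverse complement, in capitals. In GENCODE, RIOK1 starts before this stretch, at 7389496, so that the stretch lies within the annotated gene. The third is chr17:56961051-56961300 on the minus strand, 250 bases with GGGCGG, again as its reverse complement, in capitals.
WDR77 to ATP5PB: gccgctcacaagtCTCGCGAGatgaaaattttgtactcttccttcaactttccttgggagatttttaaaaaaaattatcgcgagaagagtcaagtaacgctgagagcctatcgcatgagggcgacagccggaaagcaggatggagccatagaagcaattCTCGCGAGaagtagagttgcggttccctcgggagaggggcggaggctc
RIOK1 to CAGE1: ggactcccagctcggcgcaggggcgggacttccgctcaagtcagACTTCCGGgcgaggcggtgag
COIL, 250 bases before the start: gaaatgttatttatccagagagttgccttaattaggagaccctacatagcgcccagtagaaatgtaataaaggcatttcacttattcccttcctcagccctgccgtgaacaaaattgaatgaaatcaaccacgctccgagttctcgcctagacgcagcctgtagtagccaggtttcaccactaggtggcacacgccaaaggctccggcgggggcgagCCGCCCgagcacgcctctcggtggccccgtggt

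In the 250 bases before the start of 35116 RefSeq entries, searched on both strands, the palindrome CTCGCGAG was found in 0.874%, and among the 9 of the 10 genes with an entry only WDR77 held it, at 2 positions. The ETS-type motif CCGGAAGT was in 3.42% of all windows and in 1 of the 9 genes, RIOK1. The E-box CACGTG was in 6.34% and in 1 of the 9, GEMIN7. The GC box GGGCGG was in 42.6% of all windows and in 7 of the 9, CCAAT in 32.0% and in 3 of the 9, and TATAAA in 10.7% and in none of the 9. None of the 6 motifs contains another, and a match is a description of the letters only.

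Same-strand overlap with another annotated gene was found for 4 of the 10, WDR77, SNUPN, GEMIN7 and CLNS1A. WDR77 overlaps on its own strand a transcript listed as RP11-552M11.4, which had 3.88, 4.4 and 4.05 CPM in the SMN1-labelled and 6.86, 5.63 and 6.38 CPM in the control libraries (log2 fold change -0.61, edgeR adjusted p = 3.65e-05). SNUPN, on the minus strand of chromosome 15 at 75598083 to 75626469, overlaps CTD-2323K18.1, which had 8.15, 8.70 and 8.33 CPM in the SMN1-labelled and 11.2, 10.8 and 10.8 CPM in the control libraries (log2 fold change -0.38, edgeR adjusted p = 0.000144, lost only after the length and GC correction at 0.241). GEMIN7, on the plus strand of chromosome 19 at 45079195 to 45091524, overlaps MARK4, which had 121, 113 and 111 CPM in the SMN1-labelled and 107, 104 and 111 CPM in the control libraries (log2 fold change 0.10, edgeR adjusted p = 0.0343, range 6.88e-05 to 0.164), a level far above that of GEMIN7. MARK4 was not called without control library 1 or 2, without SMN1-labelled library 1, with upper-quartile factors or with the stricter filter. It also overlaps PPP1R37, which had 19.0, 17.8 and 17.9 CPM in the SMN1-labelled and 18.9, 20.3 and 21.0 CPM in the control libraries and did not pass (log2 fold change -0.14, edgeR adjusted p = 0.0506, range 0.0271 to 0.913). How the authors assigned reads in such overlaps no source used here states, so the levels of these genes are uncertain to that extent. No same-strand overlap was annotated for COIL (chromosome 17, 56938187 to 56961054, minus strand) or TGS1 (chromosome 8, 55773142 to 55825448, plus strand).

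The other genes of the pathway were read from 6 lists with 63 genes, all tested, of which 24 were higher and 23 lower (median log2 fold change 0.02). Over all genes tested 28% were higher and 28.2% lower. The SMN complex assembles the Sm proteins, several of which the methylosome modifies. Their genes fell together: 8 of 8 were lower on the counts and 6 of 8 on FPKM values. The median log2 fold change of the 8 was -0.31, against 0.00 over all genes. SNRPF, SNRPD1 and SNRPB stood at 174 ± 3.75, 327 ± 3.59 and 539 ± 30.7 CPM in the SMN1-labelled libraries, against 274 ± 6.46, 466 ± 9.67 and 717 ± 29.4 CPM in the control libraries (log2 fold changes -0.66, -0.51 and -0.41, edgeR adjusted p = 1.93e-13, 5.84e-12 and 5.34e-09). With length and GC corrected 5 of the 8 were lower, against 22.8% of all genes, and SNRPB was not called (edgeR adjusted p = 0.183). Of 7 other SMN complex genes, SMN1 and SMN2 included, 3 were higher and 4 lower, and after the correction none was higher. DDX20, the Gemin3 gene, rose 1.26-fold (edgeR adjusted p = 6.67e-05) but was not called after the correction (0.133). GEMIN6 fell 1.13-fold (edgeR adjusted p = 0.000132), a call lost on unfiltered log2(FPKM + 1) values (limma adjusted p = 0.0509).

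Carriers of the snRNA were mostly higher before the length and GC correction. Of 8 genes for cap binding, export and import carriers 6 were higher and 1 lower, with a median log2 fold change of 0.18. Over all genes tested 28% were higher and 28.2% lower. NCBP1, the large subunit of the nuclear cap-binding complex, rose to 36.8 ± 0.826 CPM in the SMN1-labelled libraries, against 27.5 ± 1.96 CPM in the control libraries (log2 fold change 0.42, edgeR adjusted p = 2.33e-07). The export receptor gene XPO1 rose 1.28-fold (edgeR adjusted p = 1.52e-07), and RAN, the GTPase that drives transport, fell 1.17-fold (edgeR adjusted p = 9.41e-06). KPNB1, which encodes the importin beta that SNUPN binds, was named after its value was seen and stood at 797, 826 and 837 CPM in the SMN1-labelled and 709, 716 and 744 CPM in the control libraries (log2 fold change 0.18, edgeR adjusted p = 6.49e-05). After the length and GC correction 2 of the 8 were higher, NCBP1 and XPO1, near the 26% among all genes. KPNB1 was then no longer called (log2 fold change 0.02, edgeR adjusted p = 0.716, the highest of a range from 3.19e-08).

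Among the relatives of PRMT5 both directions occurred, with 3 of 9 higher and 4 lower, against 28% and 28.2% of all genes tested. PRMT1, the main enzyme for asymmetric arginine dimethylation, fell to 154 ± 4.98 CPM in the SMN1-labelled libraries, against 235 ± 17.0 CPM in the control libraries (log2 fold change -0.61, edgeR adjusted p = 3.05e-11). PRMT7 fell 1.23-fold (edgeR adjusted p = 3.68e-06), and COPRS, an adaptor that directs PRMT5 to histones, fell 1.27-fold (edgeR adjusted p = 7.86e-07), a call lost after the length and GC correction (0.385). Of 10 Cajal body factors beside COIL 4 were higher and 2 lower, against the same shares of all genes. VRK1, a kinase that phosphorylates coilin, fell 1.39-fold (edgeR adjusted p = 1.12e-06, up to 0.0469 over the alternatives). In control library 1 VRK1 had 639 reads but only 0.62 FPKM, with an exonic length of 2744 nt taken here. WDR77 had 550 reads and 6.27 FPKM in that library, with 2805 nt. The length that the authors used for VRK1 thus differs from the one taken here, and its level and corrected call are uncertain to that extent. The nucleolar and Cajal body methyltransferase gene FBL fell 1.21-fold (edgeR adjusted p = 5.23e-06), and ICE1, a factor for snRNA transcription, rose 1.22-fold (edgeR adjusted p = 0.00107). Both of these calls were lost after the correction (0.484 and 0.303).

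**Figure D5:**
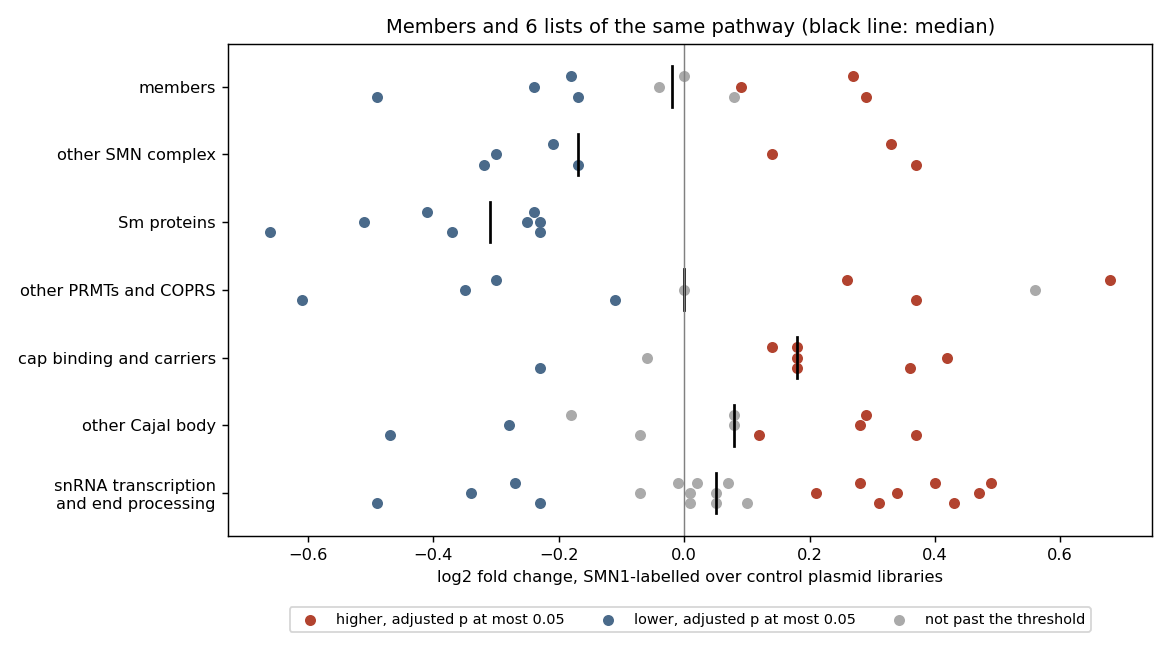
Log2 fold change (x axis, SMN1-labelled over control plasmid libraries) of the 10 genes and of 6 lists from the same pathway, each point 1 gene, coloured by its call, with the median as a black line. All 8 Sm protein genes lie left of 0, while 6 of 8 cap-binding and carrier genes lie right of 0 as called, and the 10 members stand on both sides.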

How the data were processed

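Stranded mRNA libraries were sequenced as paired 150 nt reads, per the labels' protocols. The submitters' processing notes name HISAT2, DESeq2 and the build GRCh38, with no role or version. The counting tool, annotation release and strand setting are each not given in the sources used here. The deposited read count table holds whole, unnormalized counts per gene. The deposited FPKM table holds the same libraries scaled by gene length and depth, without a TMM factor.

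Counts were tested with edgeR 4.0.16 in R 4.3.3 (TMM, default filterByExpr, quasi-likelihood F test, group as the only term, two-sided, Benjamini-Hochberg over 15829 genes). Each standard error was derived from the fold change and its F statistic. Ratios of FPKM within a library were compared by exact permutation. Alternatives were DESeq2 1.42.0, limma-voom (limma 3.58.1), RLE or upper-quartile factors, removal of 119 ribosomal protein and mitochondrial genes, other filters (none, or 1 CPM in 3 libraries), a replicate block, each library left out in turn, limma fitted to log2(FPKM + 0.1) or log2(FPKM + 1) at 0.5 FPKM or more, and a spline correction for length and GC content within each library (15663 genes, GENCODE v29). No library pair of a group was a duplicate (chi-square over its degrees of freedom 2.52 to 4.4). The steps were tested on simulated counts. The members and lists were chosen with earlier results of these data known. Named genes are the members, SMN1, SMN2 and up to 3 called genes per list in order of p. Others were chosen after their values were seen, and genes beside or overlapping a member were found by position.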

Additional observations from a re-analysis of the deposited data

How the results depend on the processing

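COIL and TGS1 kept their direction and call under all alternatives. The members called lower numbered 4 in the main analysis and 2 with DESeq2, 1 with limma on log2(FPKM + 0.1) and on log2(FPKM + 1), 0 on unfiltered log2(FPKM + 1) and 1 after the length and GC correction. Leaving out 1 library gave 2 to 4 members higher and 3 to 4 lower. Over all genes, 4466 were lower, against 2963, 2965 and 2883 in the 3 FPKM analyses. The cause of these shifts was not tested. In the 6 lists together 24 genes were higher and 23 lower, against 12 and 15 after the length and GC correction. That correction also took Sm proteins lower to 5, against 8, carriers higher to 2, against 6, other SMN complex genes higher to 0, against 3, Cajal body factors to 2 higher and 1 lower, against 4 and 2, and genes of snRNA transcription and end processing lower to 2, against 4. Cajal body factors lower numbered 4 with upper-quartile factors or the stricter filter. Other SMN complex genes numbered 1 higher with DESeq2 and 1 lower, against 4, on log2(FPKM + 1) without a filter. CLNS1A had a log2 fold change of 0.05 in each FPKM analysis, against -0.04. PRMT5, near 0 in the main analysis, was at 0.01 with DESeq2, 0.02 without a filter, 0.09, 0.08 and 0.08 on FPKM and 0.12 after the correction, and between -0.02 and 0.02 with 1 library left out. SMN2 was at -0.16 on log2(FPKM + 1) without a filter and lost its call (limma adjusted p = 0.0546). The 3 ratios kept their sign, at 0.09 to 0.22 (PRMT5 over WDR77), -0.15 to -0.10 (CLNS1A over RIOK1) and -0.41 to -0.23 (GEMIN7 over GEMIN6) with 1 library left out. Replicate numbers gave no clear pairing of the libraries. Deviations correlated at 0.003 to 0.0133 between same-numbered libraries and at -0.0141 to 0.00763 between the others. Of 6 libraries 4 correlated best with their own number. Correlations this small cannot exclude a pairing. With the replicate number as a block 8708 genes were called, 8659 of them among the 8892 of the main analysis, with 2 members higher and 3 lower, since STRAP (edgeR adjusted p = 0.0632) and WDR77 (0.0516) were then not called. In this balanced layout a block cannot change the differences of the ratios, which stay at 0.16, -0.12 and -0.31 in log2. GEMIN7 had only 73 to 115 reads per library, which limits its precision.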

Other observations

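Genes that make and trim snRNAs upstream of Sm ring assembly were also measured. Of 21 genes for snRNA transcription and end processing 8 were higher and 4 lower in the SMN1-labelled libraries, with a median log2 fold change of 0.05. Over all genes tested 28% were higher and 28.2% lower. SNAPC3, a subunit of the complex that recognises snRNA promoters, had 34.4, 36.3 and 38.4 CPM in the SMN1-labelled and 24.5, 27.7 and 25.6 CPM in the control libraries (log2 fold change 0.49, edgeR adjusted p = 4.64e-08). INTS11, the endonuclease subunit of the Integrator complex that cuts snRNA precursors, had 45.1 ± 3.41 CPM in the SMN1-labelled and 63.1 ± 1.69 CPM in the control libraries (log2 fold change -0.49, edgeR adjusted p = 6.48e-09). INTS13, which belongs to a module that binds INTS11, rose 1.24-fold (edgeR adjusted p = 7.22e-06). INTS9, the paralog that pairs with INTS11, was named after its value was seen and went the way of INTS11, with a log2 fold change of -0.23 (edgeR adjusted p = 0.000358).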
